A study of Mus musculus with 2 samples.

Results

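Cycling cardiac fibroblasts are connective tissue cells of the heart caught while preparing to divide or dividing. They were chosen by measured values, from the raw UMIs (unique molecular identifiers, each standing for 1 captured transcript) of each cell barcode. A fibroblast had at least 1 UMI of Pdgfra (a growth factor receptor of fibroblasts), at least 20 UMIs summed over the matrix and actin-binding genes Dcn, Gsn and Col3a1, and no UMI of Ptprc, Csf1r or Cdh5, which mark leukocytes, macrophages and endothelium. Of these, a cycling fibroblast had UMIs of at least 3 of the 8 cell cycle genes Top2a, Mki67, Birc5, Ube2c, Cdk1, Ccna2, Pclaf and Rrm2. The rule found 66 cells among 3722 fibroblasts, or 1.77% (95% exact binomial interval 1.37 to 2.25), out of 9369 barcodes in all. The levels of those 8 genes and of the gate genes describe the choice and are no finding.

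The cells came from 1 pool of heart cells other than cardiomyocytes, labelled as taken from mice aged 6 to 8 weeks, 7 days after TAC surgery (transverse aortic constriction, which narrows the aorta and loads the left ventricle with pressure). The pool is labelled as 3 control and 4 KO mice, the KO being of Nts, the neurotensin gene, and the series title names neurotensin from lymphatics. The genotype entry of the same pool reads WT, which conflicts with that, and the labels used here name no Cre line or promoter. Viable sorted single cells (calcein-positive, DAPI-negative) of all mice, each mouse with its own hashtag antibody, went into 1 droplet-based 3′-end library. The files used here tie no cell to a mouse (the hashtag library was not analysed here), so control and knockout hearts were not compared, all values are over the pool, and no unoperated heart is in it. With 1 library there is no replicate and no test, and every interval below covers counting error only.

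Fibroblasts divide little in the resting adult heart and are known to enter the cycle in the days after pressure overload or infarction, around the time when some of them turn on contractile and matrix genes. In S phase a cell copies its DNA with enzymes such as ribonucleotide reductase, of which Rrm2 is a subunit. In G2 and mitosis it makes cyclins, the kinase Cdk1, spindle proteins and the ubiquitin-conjugating enzyme Ube2c, which helps to destroy cyclins. Fibroblast subsets of the heart are commonly told apart by a few genes. Cthrc1 and Postn (periostin, a matricellular protein) mark activated matrix-making cells, and Pi16 marks a progenitor-type cell found around vessels and in the adventitia. The chemokine gene Cxcl14 goes with complement-rich cells, and Wif1, a secreted Wnt inhibitor, with a small valve- or tendon-like group.

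Promoters of 4 of the rule's genes are shown because cell cycle genes are known to be switched through short elements near their start sites. Each window runs from 250 bases before to 50 bases after the start in RefSeq's GRCm38.p6 annotation, 5′ to 3′ on the gene's strand. Capitals mark CCAAT (bound by NF-Y), TTTGAA (the core of the cell cycle homology region) and TTTGGCGC or TTTCCCGC (E2F sites), each searched on both strands, and CCAATTGG holds CCAAT on either strand.
Top2a, chr11:99024140-99024439, minus strand: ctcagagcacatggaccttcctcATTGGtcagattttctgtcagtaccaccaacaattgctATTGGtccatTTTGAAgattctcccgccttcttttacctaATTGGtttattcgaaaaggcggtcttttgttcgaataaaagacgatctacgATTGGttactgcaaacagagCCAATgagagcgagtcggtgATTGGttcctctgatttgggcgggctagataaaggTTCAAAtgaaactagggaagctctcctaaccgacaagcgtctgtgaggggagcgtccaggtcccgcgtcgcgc
Ube2c, chr2:164769679-164769978, plus strand: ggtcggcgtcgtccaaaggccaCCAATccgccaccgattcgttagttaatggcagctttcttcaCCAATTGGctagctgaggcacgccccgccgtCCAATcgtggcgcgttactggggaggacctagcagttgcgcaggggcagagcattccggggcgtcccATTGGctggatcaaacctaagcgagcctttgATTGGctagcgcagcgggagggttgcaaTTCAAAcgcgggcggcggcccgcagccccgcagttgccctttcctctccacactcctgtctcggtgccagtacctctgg
Cdk1, chr10:69352863-69353162, minus strand: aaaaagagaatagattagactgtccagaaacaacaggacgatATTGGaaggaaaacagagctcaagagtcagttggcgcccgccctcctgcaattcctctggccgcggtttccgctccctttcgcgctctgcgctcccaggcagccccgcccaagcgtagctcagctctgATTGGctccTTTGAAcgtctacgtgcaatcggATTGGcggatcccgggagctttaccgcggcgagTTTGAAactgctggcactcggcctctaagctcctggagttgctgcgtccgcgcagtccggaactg
Pclaf, chr9:65890073-65890372, plus strand: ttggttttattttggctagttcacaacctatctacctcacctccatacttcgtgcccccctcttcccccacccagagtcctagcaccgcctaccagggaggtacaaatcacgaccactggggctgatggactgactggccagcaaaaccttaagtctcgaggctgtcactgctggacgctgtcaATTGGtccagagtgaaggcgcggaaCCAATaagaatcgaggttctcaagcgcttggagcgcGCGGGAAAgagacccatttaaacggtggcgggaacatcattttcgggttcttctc
Top2a, Ube2c and Cdk1 held CCAAT and TTTGAA, and Pclaf, a partner of the replication clamp, held CCAAT and an E2F word and no TTTGAA. The table held a window for 7 of the 8 rule genes, and CCAAT was in 6 of these and TTTGAA in 4. Among 101 windows of 90 of 106 other G2 and mitosis genes at least 1.5-fold higher in the cycling cells, 69.3% held CCAAT, 55.4% TTTGAA and 6.93% an E2F word. The 26 windows of 23 of 28 replication, nucleotide and other S phase genes that were higher held them in 57.7%, 30.8% and 15.4%. In all 32851 windows of the table the shares were 37.4%, 17.9% and 1.56%. A match is a description of the letters and does not show that a factor was bound.

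The 66 cells held 812677 UMIs, with 4353 to 24455 per cell and a median of 11838. The 3656 non-cycling fibroblasts, which had UMIs of fewer than 3 of the 8 genes, ran from 2572 to 31916 with a median of 7745. Levels are UMIs summed over the cells of a set and scaled by all UMIs of that set to CPM, the usual unit of counts scaled to library size, and a count of 3 UMIs in the cycling cells, the most that 0 observed can hide, is 3.69 CPM. Because the cycling cells were deeper and a gene's level can move with depth, a second ratio was taken against non-cycling cells weighted to the depth of the cycling cells, and it is called the depth-matched ratio here. Mitochondrial genes took 0.437% of the UMIs of the median cycling cell and 0.709% of those of the median non-cycling fibroblast. Of the fibroblast genes outside the gate, all 66 cells carried Col1a1, Col1a2 and Lum, 64 carried Dpt and 63 Mmp2. Tcf21, a transcription factor of cardiac fibroblasts, was carried by 61 cells and Pdgfrl by 45. Carrying means at least 1 UMI, and unthinned 14.6% of the macrophages of the pool carried Col1a1. Dpt, Lum, Mmp2 and Tcf21 were nevertheless at ratios of 0.414, 0.587, 0.388 and 0.573 to the non-cycling cells. Of the 11 fibroblast markers, gate genes included, 6 were at least 1.5-fold lower and 0 higher.

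Transcripts of other cell types were low in both sets. The 12 macrophage and monocyte markers summed to 502 CPM in cycling and 494 in non-cycling fibroblasts, with Adgre1 at 0 in the cycling cells and Cd74 the largest part. Endothelial markers summed to 43.1 and 60.5 CPM, pericyte markers to 19.7 and 37.9, and mesothelial markers and Myh6 of cardiomyocytes were at 0 in the cycling cells. A single member held 1413 of the 1460 UMIs of Igkc, an antibody light chain, with 490 of Igha and 232 of Jchain, which plasma cells make. It carried 6 of the 8 cycle genes, and values it decides are given without it. Low counts of such transcripts were general, and 62 of 66 cycling cells and 91.9% of non-cycling ones held at least 2 UMIs over the lists of other lineages. Scrublet, a doublet caller, marked 1.0 cycling fibroblast and 13 non-cycling ones. Before the exclusion of cells with Ptprc, Csf1r or Cdh5, 103 cells passed the rest of the rule, and 28 of them had a Ptprc UMI, 21 a Csf1r UMI and 2 a Cdh5 UMI. Of 4279 non-cycling cells at that step, 404 had a Ptprc UMI, 341 a Csf1r UMI and 65 a Cdh5 UMI. A larger share of the cycling ones thus had a leukocyte UMI. The cells were not matched by depth here, and the part of depth was not tested.

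Genes of the late part of the cycle stood further above the non-cycling level than those of S phase in most cycling fibroblasts. Outside the rule's own genes these values still come from cells chosen by related genes, and they are a description. The 8 rule genes also lean to the late part, with only Pclaf and Rrm2 tied to DNA copying here. The part of that lean in these values was not tested. Of 117 measured G2 and mitosis genes, 107 were at least 1.5-fold higher, and 106 of these lay outside the rule. Of all 6293 measured genes 20.4% were higher, and no G2 and mitosis gene was 1.5-fold lower. A measured gene had a mean of at least 20 CPM over both sets. Ccnb1, the cyclin that starts mitosis, stood at 118 CPM against 0.233, and Stmn1, a regulator of microtubules, at 1993 against 39.7 with UMIs in all 66 cells. Among replication licensing and fork genes 3 of 10 measured were higher, with a median ratio of 1.12 in fibroblasts and 3.02 between cycling and other macrophages of the same pool. The G2 and mitosis list, taken over its mean in non-cycling cells of the same lineage, stood above the S phase lists in 62 of 66 fibroblasts, or 93.9% (95% exact binomial interval 85.2 to 98.3). The lists were within 0.5 log2 of each other in 21 of these 62 cells and in 3 of the other 4. In the 82 cycling macrophages, chosen by the same 8 genes, it did so in 29 cells, or 35.4% (25.1 to 46.7). Per fibroblast the G2 and mitosis sum ran from 0.887 to 12.4 times the non-cycling mean with a median of 4.77, and the S phase sum from 0.861 to 9.26 times with a median of 3.26.

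Among the 5 subset genes, Cthrc1 and Postn were higher and Pi16 and Cxcl14 lower in cycling than in non-cycling fibroblasts, and Wif1 was too low to be measured. Postn (ENSMUSG00000027750, chr3:54361109-54391037 in GRCm38) ran from 0 to 9925 CPM per cycling cell with a median of 1617, against a median of 154 in non-cycling cells. It had UMIs in 64 of 66 cycling cells, and the ranges of both sets overlapped. Summed, Postn stood at 2012 CPM against 957, a ratio of 2.10 (95% interval 2.00 to 2.21). The depth-matched ratio was 1.39, under the 1.5-fold bound. Cthrc1 (ENSMUSG00000054196, chr15:39076932-39087121), a secreted protein of activated fibroblasts, had UMIs in 13 cycling cells and none in the other 53. Its level was 134 against 41.2 CPM, a ratio of 3.26 (2.65 to 3.97). Of its 109 UMIs, however, 1 cell held 40 (36.7%) and another held 35. Without the first of these cells the ratio was 2.11, and depth-matched, with both cells kept, it was 1.69. A ratio without both cells was not taken, so the summed level of Cthrc1 rests mostly on few cells.

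Pi16 (ENSMUSG00000024011, chr17:29317680-29330593), a peptidase inhibitor of the cell surface, stayed present in 61 of 66 cycling cells at a lower level. Per cell it ran from 0 to 6586 CPM with a median of 549, against 983 in non-cycling cells, and the sets overlapped widely. The sums were 844 and 1826 CPM, a ratio of 0.462 (0.428 to 0.498), and depth-matched 0.479. Cells with under 2 UMIs over the marker lists of other lineages numbered only 4 cycling and 297 non-cycling, and among these the ratio of Pi16 was 1.01 and that of Cthrc1 1.46. Cxcl14 (ENSMUSG00000021508, chr13:56288643-56296551) had 25 UMIs in 8 cycling cells, 30.8 CPM against 282, a ratio of 0.109 (0.0706 to 0.161) and depth-matched 0.178. Wif1 (ENSMUSG00000020218, chr10:121033960-121100650) gave 1 UMI in 1 cycling cell, 1.23 CPM against 15.5, a ratio of 0.0794 with a counting interval from 0.00201 to 0.445. At this depth no more can be said of Wif1 than that it was scarce in both sets.

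Shares of cells with a UMI were compared after a random draw of 2500 UMIs from every cell. No fibroblast or macrophage was too shallow for it. The draw gives every cell the same number of UMIs but does not match cycling and non-cycling cells by their depth before it. In the deepest 20% of fibroblasts, unthinned, 631 had a Postn UMI and 114 had none, against 221 and 524 in the shallowest 20%. The part of such depth differences in the thinned shares was not tested. Macrophages of the pool, with a median of 5721 UMIs before thinning, served as cells that should lack these genes. Postn was then found in 86.4% (75.7 to 93.6) of cycling and 43.8% (42.2 to 45.4) of non-cycling fibroblasts, and in 4.32% of macrophages. Before thinning the shares were 97.0%, 56.3% and 9.87%. Cthrc1 was found in 13.6% (6.43 to 24.3), 3.39% (2.83 to 4.03) and 0.353% after thinning and 19.7%, 6.46% and 0.705% before. For both genes the intervals of the fibroblast sets did not meet. Pi16 went the other way, with 59.1% (46.3 to 71.0), 76.3% (74.9 to 77.7) and 6.83% after thinning, although before thinning its share was higher in cycling cells, 92.4% against 86.8% (macrophages 15%). Cxcl14 was found in 6.06% (1.68 to 14.8) of cycling cells, an interval that holds the 4.32% of macrophages, and in 15.3% (14.2 to 16.5) of non-cycling fibroblasts, so its fibroblast intervals overlapped. Unthinned, its shares were 12.1%, 21.8% and 8.81%. Wif1 was found in 0 of 66 cycling cells, which allows a share of up to 4.55% by 3 counts and 5.44% by the exact interval, in 0.766% of the rest and in 0.0881% of macrophages. Unthinned, its shares were 1.52%, 1.23% and 0.0881%.

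**Figure D1:**
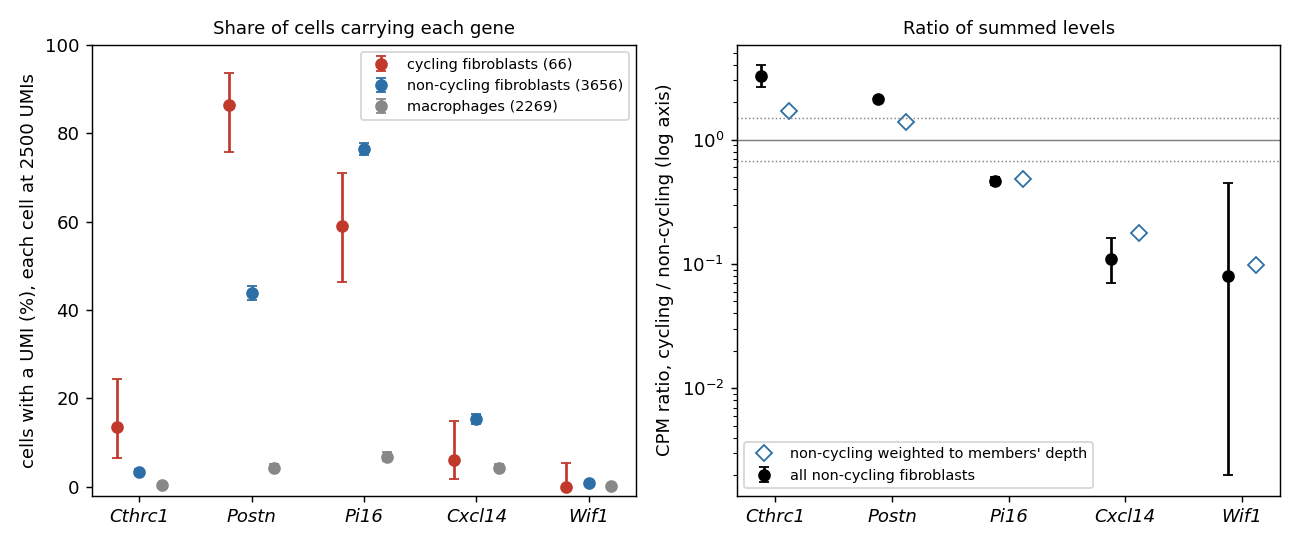
Left, the percentage of cells with a UMI of each subset gene after thinning each cell to 2500 UMIs, for cycling fibroblasts, non-cycling fibroblasts and macrophages, with 95% exact binomial bars. Right, the ratio of summed CPM of cycling over non-cycling fibroblasts on a log axis with 95% counting bars, beside the depth-matched ratio as open diamonds and the 1.5-fold bounds as dotted lines; Cthrc1 and Postn lie above 1 and Pi16 and Cxcl14 below it on both, Wif1 rests on 1 UMI, and depth-matched Postn lies inside the bounds.

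Within single cells the commonest make-up was Postn with Pi16. Of the 66 cells, 44 carried Postn and Pi16 without the other 3 genes, 11 carried Cthrc1, Postn and Pi16, and 2 carried those 3 with Cxcl14. Unthinned, these were 66.7%, 16.7% and 3.03% of cycling cells, against 38.2%, 4.51% and 0.629% of non-cycling fibroblasts. All 13 cells with Cthrc1 also carried Postn and Pi16, as did 61 of all 66 cycling cells and 51.7% of non-cycling ones. At 2500 UMIs per cell, Postn and Pi16 were found together in 51.5% (38.9 to 64.0) of cycling and 35.9% (34.4 to 37.5) of non-cycling fibroblasts. Postn without Pi16 was found in 34.8% (23.5 to 47.6) and 7.88% (7.02 to 8.80), and Pi16 without Postn in 7.58% (2.51 to 16.8) and 40.4% (38.8 to 42.0). None of these 3 pairs of intervals overlapped, but the sets were not matched by depth before thinning. In macrophages the pair was found together in 0.309% of cells.

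**Figure D2:**
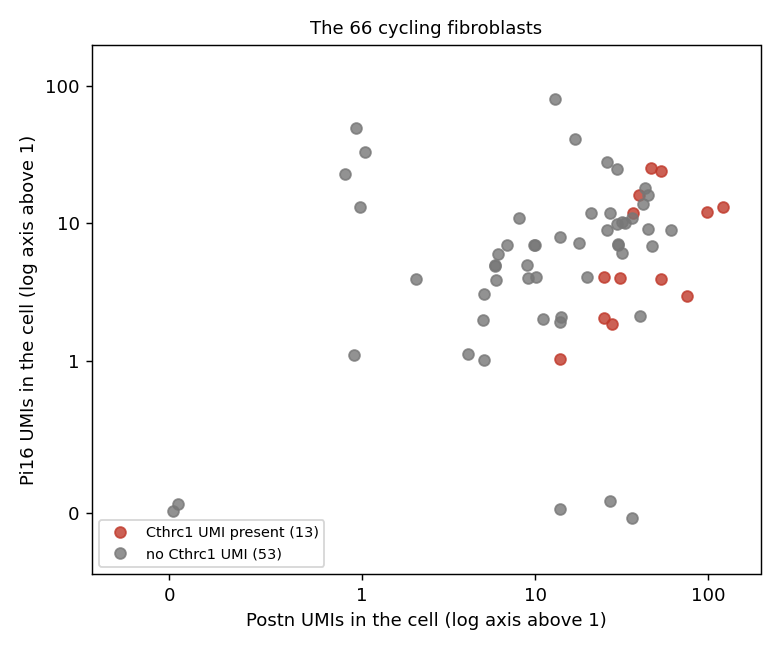
UMIs of Postn (horizontal) and Pi16 (vertical) in each of the 66 cycling fibroblasts, on axes that are logarithmic above 1 UMI, with cells that had a Cthrc1 UMI in red; points are moved slightly at random so that they do not cover each other. The 13 cells with Cthrc1 all have UMIs of both other genes, and 2 cells have neither Postn nor Pi16.

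Read the other way, 64 of 2124 fibroblasts with a Postn UMI were cycling, 3.01% (95% exact binomial interval 2.33 to 3.83), against 2 of 1598 without one, 0.125% (95% exact binomial interval 0.0152 to 0.451). Deep cells are more likely to show any gene, so the same was counted within the deepest 20% of fibroblasts (10525 UMIs or more). There 43 of 631 Postn carriers were cycling, 6.81% (95% exact binomial interval 4.98 to 9.07), against 0 of 114 cells without Postn, whose exact upper bound was 3.18%. Acta2, the smooth muscle actin of myofibroblasts, split the same deep cells in the same direction, with 34 of 327 carriers cycling, 10.4% (95% exact binomial interval 7.31 to 14.2), and 9 of 418 others, 2.15% (95% exact binomial interval 0.989 to 4.05). For Cthrc1 the split there was 8.55% (95% exact binomial interval 4.17 to 15.2) against 5.25% (95% exact binomial interval 3.64 to 7.30), and for Cxcl14 2.67% (95% exact binomial interval 0.731 to 6.69) against 6.55% (95% exact binomial interval 4.70 to 8.85). Those intervals, which cover counting error only, overlapped for both genes. In the next 20% (8601 to 10524 UMIs), 2.02% of Postn carriers and 0.503% of the others were cycling, with overlapping intervals. For Acta2 the shares there were 5.18% and 0.363%, with intervals apart. For Cthrc1 they were 1.75% and 1.60%, and for Cxcl14 1.94% and 1.53%, the other direction.

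Cells just inside and just outside the rule are given as a description. The 49 fibroblasts with 2 cycle genes stood at 2339 CPM of Postn, 227 of Cthrc1, 1037 of Pi16 and 56.2 of Cxcl14. The 19 with 3 cycle genes stood at 1568, 4.98, 1464 and 9.96, the Cthrc1 value being 1 UMI, and the 13 with 4 at 2579, 122, 661 and 115. The 34 cells with 5 to 8 cycle genes stood at 2013, 195, 634 and 11, the 373 with 1 at 1430, 78.8, 1450 and 225, and the 3234 with none at 859, 31.6, 1896 and 295. Every one of these 4 genes was further from the cells with none at 2 cycle genes than at 1. Clec3b, which encodes tetranectin, stood at 1493, 982, 491, 373, 199 and 254 CPM with 0, 1, 2, 3, 4 and 5 to 8 cycle genes. Acta2 stood at 95.1, 261, 377, 279, 539 and 384 CPM in the same groups. None of these genes but Clec3b moved in 1 direction from 0 to 4 cycle genes. Median depth was also mostly higher along these steps, from 7587 UMIs at 0 to 11461 at 2 and 12423.5 at 5 to 8 with 9735 at 3, and its part in them was not tested.

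**Figure D3:**
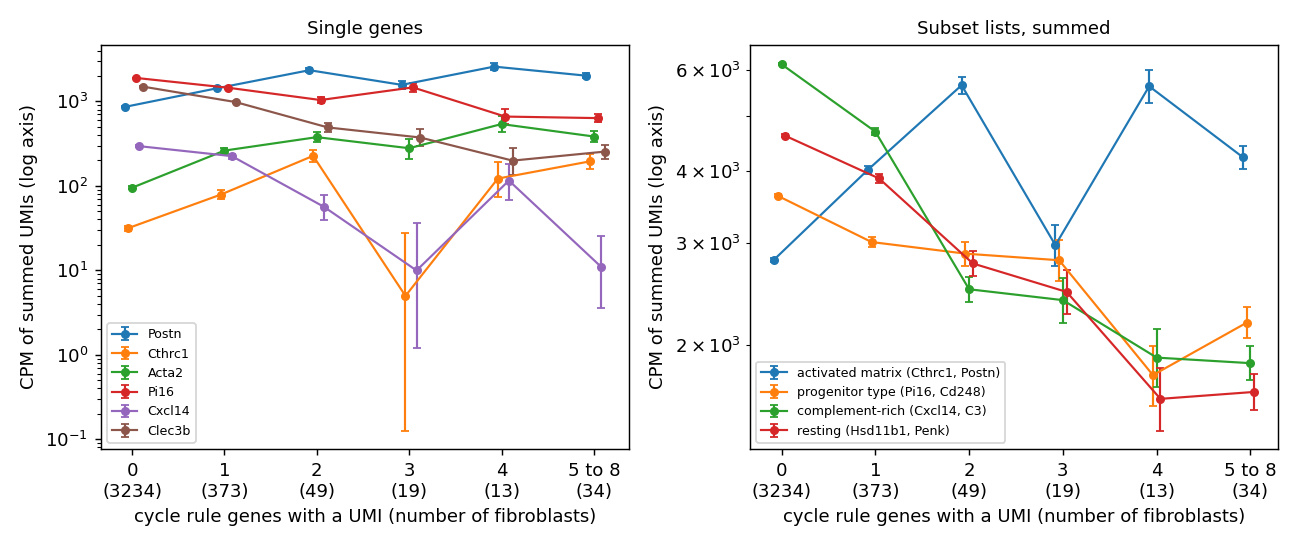
CPM of summed UMIs, on a log axis, in fibroblasts grouped by how many of the 8 cycle genes had a UMI (cell numbers in brackets), for 6 single genes on the left and 4 subset lists on the right, with 95% counting bars. The complement-rich and resting lists are lower in every group with 2 or more cycle genes than in the group with 0. The activated matrix list is higher in every group with 1 or more than in the group with 0, but at 3 cycle genes the bars overlap (2977 against 2809 CPM).

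Over all 6293 measured genes, 1284 (20.4%) were at least 1.5-fold higher and 845 (13.4%) at least 1.5-fold lower in the cycling cells. Outside the cell cycle lists and the rule's genes, 1143 of 6123 (18.7%) were higher and 843 (13.8%) lower, with a median ratio of 1.07. Depth-matched, these shares were 14.6% higher and 12.5% lower with a median ratio of 1.05. The median log2 ratio of all measured genes was 0.12, so a gene at a ratio of 1 lay slightly under the middle.

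Genes of the resting and complement-rich fibroblast lists were lower in the cycling cells. All 10 measured resting genes were at least 1.5-fold lower (depth-matched 8 of 9), with a median ratio of 0.303, against 13.8% of genes outside the cycle. They included Htra3, a secreted protease, at 442 against 1554 CPM, the transporter Abca8a at 127 against 454, and Hsd11b1, which regenerates active glucocorticoid, at 46.8 against 144. Penk and Inmt, at ratios of 0.309 and 0.291, were less far apart when depth-matched, 0.580 and 0.761, Inmt then being under the 20 CPM minimum, and the gene of the 9 that was not lower was Smoc2 at 0.711. Of 9 complement-rich genes 8 were lower and none higher, with a median ratio of 0.320. C3, the central complement component, stood at 172 against 661 CPM in 35 of 66 cells, and the complement regulator Serping1 at a ratio of 0.357 (0.331 to 0.385). C4b stood at a ratio of 0.723 (0.439 to 1.12), and 1 cell held 50% of its UMIs; without that cell it was 0.372, and depth-matched 1.11.

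In the progenitor-type list 5 of 9 measured genes were lower and none higher, with a median ratio of 0.632. Beside Pi16, the surface glycoprotein Cd248 stood at 106 against 167 CPM and Ly6c1 at 56.6 against 150.5, while Fbn1 (fibrillin) at a ratio of 0.832 and Anxa3 at 1.35 stayed inside the bound. Dpp4, a peptidase that also marks progenitor-type cells, had 3 UMIs in 2 cycling cells and was too low to be measured. The activated matrix list was mixed, with 4 of 10 genes higher and 1 lower and a median ratio of 1.40, against 18.7% higher and 13.8% lower in the background. Lox, which crosslinks collagen, stood at 160.0 against 67.6 CPM, a ratio of 2.37 (1.97 to 2.83) and 1.86 depth-matched. The fourth higher gene, Thbs4, had a ratio of 1.77 that turned to 0.850 when depth-matched, so of the 4 only Cthrc1 and Lox remained past the bound. Aspn, a proteoglycan of the same list, was lower at 322 against 807 CPM, Cilp had a ratio of 0.917 (0.751 to 1.11), and Fap (fibroblast activation protein) one of 1.00. The depth-matched median of the list was 0.932, on the other side of 1.

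The 3 smaller subset lists had few measured genes, 5, 4 and 3, of which 3, 2 and 2 were lower, against 13.8% in the background. Mmp3, a matrix-degrading protease, had 8 UMIs at 9.84 against 63.3 CPM, and Osr1, a transcription factor, a ratio of 0.762 (0.564 to 1.01). Igfbp3 had a ratio of 0.450, but 1 cell held 77.4% of its UMIs and without it the ratio was 0.104. Depth-matched, Igfbp3 stood at 0.763, inside the bound. Il6, an inflammatory cytokine, was lower at 51.7 against 157 CPM in 17 cells. Tnc (tenascin-C), a matrix protein of wounds, was higher at 48.0 against 18.9 CPM in 19 cells, with a ratio of 2.54 (1.78 to 3.51) and 1.36 depth-matched. Col26a1 had a ratio of 1.38 (0.859 to 2.11). Comp (cartilage oligomeric matrix protein) had 10 UMIs in 3 cells, 70% of them in 1 cell, and a ratio of 0.413 that was 0.126 without that cell. Prg4 (lubricin) was past the bound at 1.98, but 1 cell held 64.6% of its UMIs and without it the ratio was 0.713. Fmod, a proteoglycan of tendon, had 7 UMIs and was too low to be measured.

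Matrix genes did not move as 1 block. Beside the counts here, 18.7% of all measured genes outside the cycle were higher and 13.8% lower. Fibrillar and associated collagens had 0 higher and 1 lower of 11 measured, with a median ratio of 0.862. Col1a2, a chain of type I collagen, stood at 2534 against 2938 CPM, a ratio of 0.862 (0.825 to 0.901), and Col6a3 was the lower one at 261 against 415. Basement membrane genes had 0 higher and 7 lower of 11 measured and a median of 0.648. Lama2, a laminin chain of muscle, stood at 140.3 against 343 CPM, the linker Nid1 at 348 against 782, and Col15a1 at 624 against 1022. Small leucine-rich proteoglycans, which bind collagen fibrils, had 0 higher and 5 lower of 7 measured, a median of 0.497. Ogn was at 204 against 1010 CPM and Ecm2 at 39.4 against 183, while Bgn (biglycan) had a ratio of 0.953 (0.922 to 0.985). Elastic fibre genes had 1 higher and 7 lower of 15 measured. Fbln1 (fibulin) was lower, 470.1 against 1466 CPM, as was Efemp1, 30.8 against 111; Mfap5 had a ratio of 1.36. Ltbp2 had 1.61, and 1.11 depth-matched.

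Collagen processing genes had 2 higher and 1 lower of 17 measured, with a median ratio of 1.07. Both shares were under the background of 18.7% higher and 13.8% lower. Plod2, which hydroxylates lysines for crosslinks, was higher at 171 against 87.6 CPM, a ratio of 1.95 (1.63 to 2.32) and 1.55 depth-matched. Loxl2, a crosslinking enzyme, had a ratio of 1.73 and 1.34 depth-matched, the prolyl hydroxylase gene P4ha2 was lower with 0.603, and Sparc, a collagen chaperone, had 1.07 (1.05 to 1.10). Matricellular proteins had 1 higher and 3 lower of 11 measured. Tnxb (tenascin-X) stood at 169 against 529 CPM, Sfrp1 at 202 against 389 and Ccn1 at 913 against 1422. Spp1 (osteopontin) had a ratio of 5.47, from 47 UMIs in 6 cells with 51.1% in 1, and 2.72 without that cell.

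Actin and contractile genes stood higher in the cycling fibroblasts, 8 higher and 0 lower of 12 measured, against 18.7% of genes outside the cycle, with a median ratio of 1.71 (6 higher and a median of 1.51 depth-matched). Cycling macrophages of the pool also stood above other macrophages, with a median ratio of 1.43 for the list, 6.81 for Acta2 (99.3 against 14.6 CPM) and 3.95 for Tpm2. Acta2 ran from 0 to 1557 CPM per cycling cell with a median of 174, and the median of non-cycling cells was 0. The sums were 388 against 120.4 CPM in 49 of 66 cycling cells, a ratio of 3.22 (2.86 to 3.61) and 1.74 depth-matched. At 2500 UMIs per cell Acta2 was found in 51.5% (38.9 to 64.0) of cycling fibroblasts, 10.9% (9.95 to 12) of non-cycling ones and 1.54% of macrophages (unthinned 74.2%, 20.8% and 3.26%). Tpm2 (tropomyosin) stood at 337 against 109 CPM, a ratio of 3.09 (2.72 to 3.49), and Actb (beta-actin) at 7457 against 4075, a ratio of 1.83. Tagln, another smooth muscle gene, had 1.47 and turned to 0.742 depth-matched, and Myl9 (a myosin light chain) had 0.789. The smooth muscle markers summed to 6.15 against 17.0 CPM with Myh11 at 0 CPM, and the pericyte marker Rgs5 at 2.46 against 6.67. Their part in the actin values was not tested.

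Secreted signals were mostly lower or inside the bound, beside a background of 18.7% higher and 13.8% lower genes. Growth factor and receptor genes had 1 higher and 9 lower of 16 measured, a median ratio of 0.605. Igfbp4 and Igfbp6, which bind insulin-like growth factors, stood at 903 against 2298 and 194 against 543 CPM, while Igfbp7 had a ratio of 0.848. Hbegf, a ligand of the epidermal growth factor receptor, was the higher one at 55.4 against 30.6 CPM. Chemokines and cytokines had 1 higher and 6 lower of 11 measured. Ccl11 (eotaxin, which draws eosinophils) had 4 UMIs in 2 cells, 4.92 against 93 CPM, Cxcl12 stood at 52.9 against 155, and Cxcl1, which draws neutrophils, at 1338 against 2564. Ccl7, which draws monocytes, had a ratio of 0.281 and 0.175 without the cell that held 39.2% of its UMIs. Cxcl10, an interferon-induced chemokine, was higher in 19 cells with a ratio of 2.80 (2.26 to 3.43), 1.64 depth-matched.

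TGF-beta and BMP genes had 1 higher and 4 lower of 17 measured, a median of 0.814, against a background of 18.7% higher and 13.8% lower. Ltbp1, which stores latent TGF-beta in the matrix, stood at 43.1 against 109 CPM and the ligand Bmp2 at 9.84 against 37.1, while the target gene Id1 was higher, 257 against 159, and 1.36 depth-matched. Id3 had a ratio of 0.873. Of 4 measured Wnt genes only Ccnd1 (cyclin D1) passed, with a ratio of 1.64, 1.25 depth-matched. The inhibitor Sfrp2 had 0.722, and 0.453 without the cell with 39.0% of its UMIs. Type I interferon genes had 2 higher and 1 lower of 11 measured, near or under that background. Ifi27l2a was found in all 66 cells and higher, 4800 against 2611 CPM. Isg15 lay at 1.51 and at 1.08 without the cell holding 29.7% of its UMIs, and Oasl2 was lower at 0.650.

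Immediate early and dissociation genes, which also respond to tissue digestion, were lower. Of 23 measured, 0 were higher and 17 lower, against 18.7% and 13.8% in the background, with a median ratio of 0.596. Klf2 stood at 364 against 1135 CPM, the heat shock gene Hspa1a at 463 against 1335, and Junb had a ratio of 0.696 (0.671 to 0.722). The same list had a median ratio of 0.701 between cycling and other macrophages of the pool. The 8 measured mitochondrially encoded genes summed to 4405 against 7191 CPM and 6 of them were lower. These values stand beside every list described here, and their part in them was not tested.

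Of the lists of growth and protein turnover, the proteasome stood furthest above the background of 18.7% higher genes (14.6% depth-matched). The proteasome, which breaks down proteins including cyclins, had 13 higher and 0 lower of 19 measured and a median ratio of 1.60 (8 higher and a median of 1.44 depth-matched, and a median of 1.25 in macrophages). Psmd14 stood at 171 against 66.2 CPM and Psmc1 at 150.1 against 67.0, and the core subunit Psmb1 had a ratio of 1.35. Chaperones had 7 higher and 0 lower of 22 measured (3 higher depth-matched, a share near that background). They were led by Hsp90b1 of the endoplasmic reticulum, 2092 against 1014 CPM, and Tcp1, a subunit of the chaperonin that folds actin and tubulin, 242 against 121; Hsp90ab1 had 0.988. Ribosome biogenesis had 5 higher and 0 lower of 17 measured (1 depth-matched, under the background), with Wdr12 at 2.10, Nop16 at 1.71 and Npm1 at 0.958. Translation factors had 5 higher and 0 lower of 16 measured (2 depth-matched, near the background), with Eif2s1 at 2.19, Eif3a at 1.62 and the elongation factor Eef1a1 at 0.682. The median ratio of that list was 1.23 while its sum was lower, 11680 against 13204 CPM. The 71 ribosomal protein genes had 3 higher and 3 lower.

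Glycolysis and hypoxia genes were split, 5 higher and 2 lower of 14 measured, against 18.7% and 13.8% in the background. Pgam1 and Pgk1, enzymes of lower glycolysis, stood at 399.9 against 173 and 263 against 114 CPM, and Gapdh at 1606 against 804. Aldoa and the hexokinase Hk2, both of upper glycolysis, were lower, 241 against 486 and 43.1 against 82.6. Nuclear genes of the respiratory chain had 5 higher and 0 lower of 26 measured (3 depth-matched, near the background), with Cycs (cytochrome c) at 1.99, Cox5a at 1.96 and Cox4i1 at 1.19. Sterol synthesis had 5 higher and 0 lower of 9 measured (2 depth-matched), among them Mvk at 2.46 and Hmgcs1 at 1.64 (1.43 depth-matched), while Insig1, which holds back the pathway, had 1.01. Among cell cycle brakes and G1 regulators, 4 higher and 2 lower of 15 measured, the inhibitor Cdkn1c stood at 41.8 against 119 CPM and Txnip at 293 against 478 (0.748 depth-matched). Trp53 (p53) had 1.78 and its antagonist Mdm2 2.10, or 1.32 without the cell that held 39.3% of the Mdm2 UMIs. Gas1 had 0.867 (0.807 to 0.930).

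**Figure D4:**
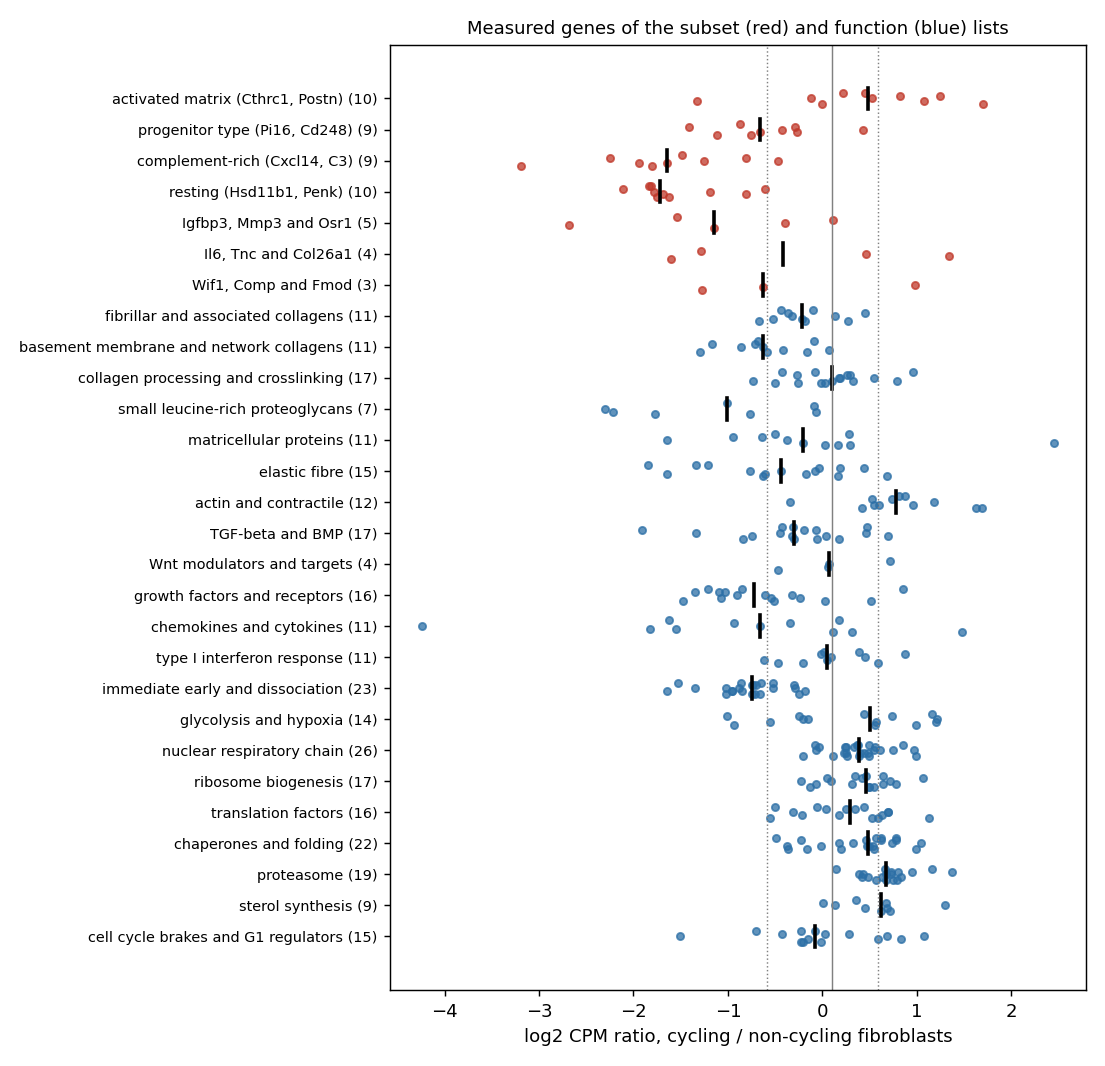
The log2 ratio of CPM of cycling over non-cycling fibroblasts for each measured gene (1 point each) of the 7 subset lists in red and the 21 function lists in blue, with the number of measured genes in brackets and a black bar at each list's median. Dotted lines are the 1.5-fold bounds and the grey line is the median of measured genes outside the cell cycle. Medians of the resting, complement-rich and progenitor-type lists and of the lists headed by Igfbp3 and by Wif1 lie under the lower bound. So do those of the basement membrane, small leucine-rich proteoglycan, growth factor, chemokine and immediate early lists. Medians of the actin, proteasome and sterol lists lie above the upper bound.

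Outside all lists of the cell cycle and of other cell types, the highest ratios included genes made by many members. Acp6, a lysophosphatidic acid phosphatase, stood at 98.4 against 5.43 CPM in 36 of 66 cells, a ratio of 18.1 (13.7 to 23.8), with 1.06 in macrophages. Stom (stomatin, a membrane protein) had 11.9 in 33 cells and 1.14 in macrophages, where the choice of these genes allowed no ratio of 1.5 or more. The transcription factor Etv4 had 10.7 in 26 cells, and F2rl1, a protease-activated receptor, 6.99 in 18 cells; depth-matched these were 5.32 and 3.63. Tbc1d4 had 5.21, Ptges3l 4.62, Rassf3 4.48, the spermine synthase Sms 4.47 and Chac2 4.27, each in 23 to 31 cells. Leaving out 1 cell lowered some of the highest ratios. Jchain, Igha and Igkc had ratios of 66, 54.3 and 24.3, and without the member with plasma cell transcripts 1.15, 1.76 and 0.803. Pycard, an inflammasome adaptor, had 4.28 and 1.60 without its top cell, and Ankrd1, a stretch-responsive gene, 5.56 and 3.27.

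Among the lowest ratios were Cxcl14 and Mmp3 of the subset lists, Ccl11 of the chemokine list and Ogn of the proteoglycan list. Beside these, the lowest ratios included Clec3b, 273 against 1413 CPM, a ratio of 0.193 (0.169 to 0.221), and the dipeptidase Dpep1, 159 against 896, 0.177 (0.148 to 0.211). The lysophospholipase Enpp2 (autotaxin) stood at 23.4 against 124 CPM and the oxygenase Fmo2 at 20.9 against 108. Gamt, which makes creatine, had 3 UMIs and 3.69 against 53.0 CPM, a ratio of 0.0697 with a counting interval from 0.0144 to 0.204. Smim1, Or5m3b, Anpep, Mustn1 and Wfdc1 had 6 or 7 UMIs each, with ratios of 0.161, 0.170, 0.179, 0.190 and 0.195. Each of these genes stayed under the lower bound when depth-matched, the highest being Fmo2 at 0.303. In macrophages none of them was 1.5-fold lower, which the choice of these genes required.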

How the data were processed

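Cells of 1 pooled droplet library from mouse heart were analysed. The deposited matrix holds the authors' UMI counts per gene and barcode, whole numbers without normalization; STARsolo, Scanpy and mm10 are named in the submitters' processing notes, and the rule that called cells is not given in the sources used here. The hashtag library was not analysed here. Cycling and non-cycling fibroblasts were compared by summed UMIs as CPM, with 95% exact Poisson or conditional binomial intervals of counting error and Clopper-Pearson intervals for shares. A gene was measured at a mean of 20 CPM and counted past a fold of 1.5. The members and gene lists were chosen with earlier results of these data known. Named genes were the 15 highest and 15 lowest ratios outside cell cycle, marker, mitochondrial, ribosomal protein, Gm and Rik genes and not past the same fold in macrophages, the first 3 genes of each subset list, and in each other list up to 2 per direction and the one with most UMIs; others named were chosen after their values were seen, and some genes that the rule names are not reported here. Macrophages had Csf1r, at least 5 UMIs over C1qa, C1qb, C1qc, Lyz2 and Cd68, no Pdgfra or Cdh5, and under 20 UMIs over Dcn, Gsn and Col3a1. Doublets were kept, and removal of the 3.81% of cells that Scrublet marked was an alternative. All but 1 of 871 list symbols matched the files' gene names, and 52029 of 56954 feature identifiers were in GENCODE M21 (GRCm38), which gave gene positions, and promoters came from RefSeq. The ratio step was tested on simulated data. Python 3.11.15, numpy 2.4.6, scipy 1.17.1, pandas 2.3.3, scanpy 1.11.5 and matplotlib 3.10.9 were used.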

Additional observations from a re-analysis of the deposited data

How the results depend on the processing

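Alternatives to the rule moved the share of cycling fibroblasts (1.77%) to 3.09% with at least 2 cycle genes, 1.26% with at least 4, 0.913% with at least 5, 0.672% with every cell thinned to 2500 UMIs first (25 cells left) and 1.33% without cells with 2 or more UMIs of other lineages (4 cells left). Counts of higher and lower genes (1284 and 845) were 2125 and 1870 at a mean of 5 CPM, 4622 and 2768 without a level filter, 455 and 332 at a fold of 2, 2447 and 1519 after thinning, 2588 and 1372 without cells with other-lineage UMIs, and 917 and 554 with at least 2 cycle genes. The last 3 changes come with other numbers of cells. The ratio of Cthrc1 was 4.65, 4.31 and 4.72 with at least 2, 4 and 5 cycle genes, 1.84 after thinning, 1.46 without other-lineage UMIs, 4.24 against cells with 0 cycle genes, 1.69 depth-matched and 2.11 without its top cell. For Postn the same 8 settings gave 2.32, 2.25, 2.08, 2.47, 2.85, 2.34, 1.39 and 1.98, and equal weight per cell 2.48. Pi16 had 0.503, 0.351, 0.349, 0.283 and 1.01 under the first 5, the last on the other side of 1, and 0.420 without its top cell. Cxcl14 had 0.178 depth-matched and 0.0393 with at least 5 cycle genes. Wif1 had no UMI left in the cycling cells after thinning, with at least 4 or 5 cycle genes, without other-lineage UMIs or without its single carrier. Among other genes named by the rule with a ratio past 1.5-fold, those that crossed 1 were, without other-lineage UMIs, Pycard 0.731, Comp 2.81, Id1 0.404, Hbegf 0.920, Isg15 0.210, Cycs 0.667, Eif2s1 0.802, Hmgcs1 0.651, Mdm2 0.847; after thinning, Plod2 0.975, Ccnd1 0.847, Cxcl10 0.361, Oasl2 1.62; Isg15 0.767 with at least 5 cycle genes; and Igkc 0.803 without its top cell, which is the member with plasma cell transcripts. Of other ratios given, Thbs4 0.850, C4b 1.11, Tagln 0.742, Sparc 0.894, Insig1 0.976 and Fap 0.931 crossed 1 depth-matched, and Prg4 0.713, Insig1 0.881 and Fap 0.933 without the top cell. The cause of these was not tested. Of the 124 named ratios other than those of the 5 subset genes, 76 stayed within their interval depth-matched and 48 left it; 106 stayed and 17 left without their top cell, 1 more crossing 1. After thinning 44 stayed, 60 left and 4 crossed 1, and without other-lineage UMIs 14, 67 and 9, the rest having no value. With at least 2, 4 and 5 cycle genes 47, 22 and 40 left, and with equal weight per cell 25. All 124 stayed with a gate of 50 UMIs and with Scrublet doublets removed. These 2 settings hardly changed the cells, leaving 66 cycling and 3653 non-cycling cells and 65 and 3643, so little could move. The member with plasma cell transcripts was kept in both, with 1459 of the 1460 Igkc UMIs left after Scrublet. The alternatives with at least 5 cycle genes, without the plasma cell transcript member and without the top cell, and the depth-matched counts of each list, were added after the data had been seen. No paired analysis was possible because there is 1 pooled library. The limits are 66 cells, 1 library without replicate, files that tie no cell to a mouse, and genes with few UMIs, for which 1 cell can set the ratio.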
